A study of Homo sapiens with 10 samples.

Results

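The imprinted small nucleolar RNAs (snoRNAs) of chromosome regions 15q11-q13 and 14q32 were examined in HEK-293, an immortalised line from human embryonic kidney. Their rows were taken by identifier, those beginning HBII-13, HBII-52, HBII-85, HBII-436, HBII-437 or HBII-438 for 15q11-q13 and 14q for 14q32. This gave 147 probe sets, 87 for 15q11-q13 and 60 for 14q32, of 20706 rows in the table and of 4565 human probe sets. A probe set is the group of array probes designed for one RNA. The 147 probe sets stand for 117 snoRNA names, and all 117 matched a RefSeq gene through its synonyms. HEK-293 cells were transfected with siRNA at 10 nM with RNAiMax, and total RNA was hybridised to Affymetrix miRNA arrays, 1 array per sample. Groups of 2 arrays each were LINC00324 siRNA 2, LINC00324 siRNA 1, scramble siRNA, LOC400043 siRNA 2 and LOC400043 siRNA 1, in all 10 arrays. LINC00324 and LOC400043 are long non-coding RNAs, and the study asked whether silencing them changes small RNA levels. The value table gives no check of either silenced RNA, because its probe sets are for small RNAs. The arrays of a group are called biological replicates, but the labels do not say whether each had its own culture. The p-values below therefore reflect array-to-array spread alone, which may be technical. Over 732 detected human probe sets the 2 arrays of a group correlated at 0.978 to 0.987. With 2 arrays per group, this measure cannot tell which array of a pair is off, and it does not see a shift in level.

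Most C/D box snoRNAs guide the 2′-O-methylation of ribosomal or small nuclear RNA by base pairing to the modified site. The imprinted ones are mostly orphan guides, with no established ribosomal target. At 15q11-q13 they are processed from introns of a long host transcript that starts at SNRPN and is made from the paternal allele. Loss of the paternal SNORD116 copies is a known cause of much of Prader-Willi syndrome, and SNORD115, known mainly from brain, has a stretch complementary to the serotonin receptor transcript HTR2C. At 14q32 the snoRNAs and a large miRNA cluster lie in the DLK1-MEG3 region and are made from the maternal allele.

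Nearly all probe sets of both regions were at the level of probes that have no target in human cells. The floor was the 95th percentile, over 2830 plant probe sets, of the mean log2 signal across the 10 arrays, which was 1.30. By this floor 5 of 147 imprinted probe sets (3.40%) were detected, against 5.02% of the plant probe sets themselves, which is fixed by the choice of percentile, and 16.0% of all human probe sets. Above the stricter 99th percentile, at 3.93, were 2 of 147 (1.36%), against 6.46% of human probe sets. The share of imprinted probe sets above the lower floor was thus no higher than that of plant probes, and is no result about them. The median imprinted probe set had a mean of 0.87, beside 0.83 for the plant probe sets, and 54 of 147 (36.7%) lay below the plant median. The other 142 means ran from 0.62 to 1.29. On no array did 128 of the probe sets pass that array's own plant 95th percentile, while 2 passed it on all 10. The LOC400043 arrays were normalized apart from the other 6, so a mean over all 10 sets levels of both runs together. With the floor recomputed within either run the count was again 5 of 147, but not of the same probe sets. Over the LOC400043 arrays 14qI-1_x_st ranked below HBII-85-8_x_st and was not among the 5. In bulk RNA, few cells with a snoRNA and little of it in every cell cannot be told apart.

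**Figure D1:**
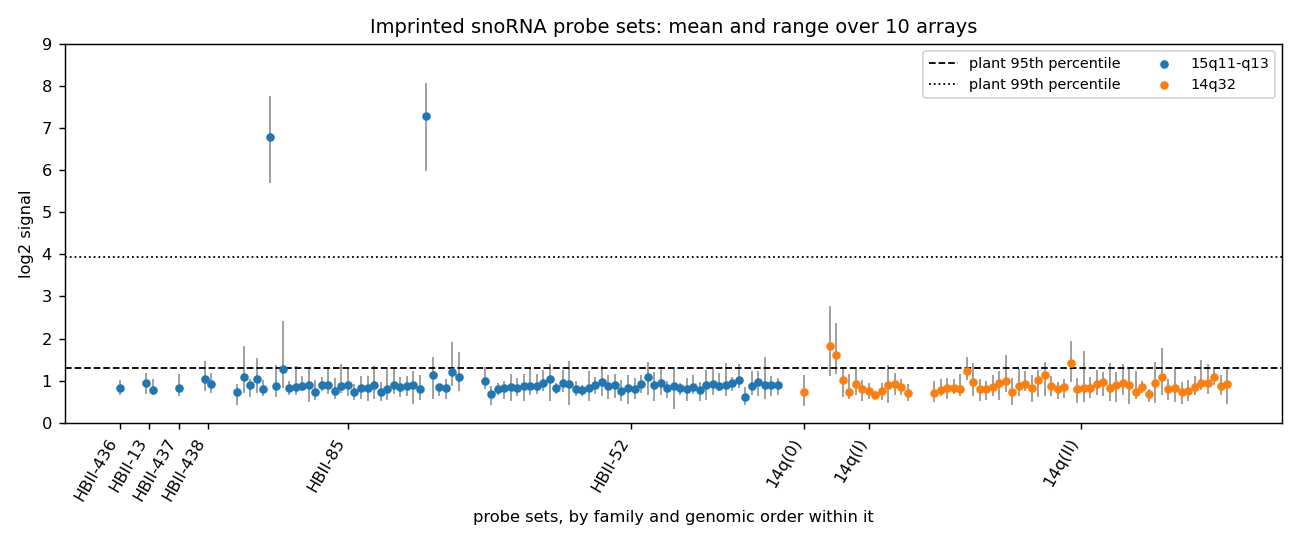
Mean log2 signal over the 10 arrays (points) with the lowest and highest array (lines) for the 147 imprinted snoRNA probe sets, grouped by family. The dashed and dotted lines are the 95th and 99th percentiles of the plant probe sets, 1.30 and 3.93, and 2 HBII-85 probe sets lie far above both.

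Host-gene order at 15q11-q13 puts the single-copy snoRNAs HBII-436 (SNORD107), HBII-13 (SNORD64), HBII-437 (SNORD108) and HBII-438A (SNORD109A) before the HBII-85 array, and HBII-438B (SNORD109B) after the HBII-52 array. None of these 5 was detected. HBII-436 averaged 0.83 on the log2 scale and ranged from 0.66 to 1.01 over the 10 arrays. The plain probe set for HBII-13 averaged 0.93, and the one whose probes may match other sequences (suffix _x_st) averaged 0.79. HBII-437 averaged 0.83. HBII-438A and HBII-438B, which share a name and have probe sets that may match more than one transcript (suffix _s_st), averaged 1.04 and 0.92. None of the 6 probe sets passed its own array's plant 95th percentile on any array.

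HBII-52 (SNORD115), the tandem array known from brain, had none of its 46 probe sets detected, for 42 copies. Their means had a median of 0.88. The highest was HBII-52-25_x_st at 1.10, a level above 90.0% of plant probe sets, and the lowest was HBII-52-41_x_st at 0.62. HBII-52-25_x_st had 1.45 and 1.01 with LINC00324 siRNA 2, 1.12 and 0.66 with LINC00324 siRNA 1, 1.40 and 1.44 with scramble, 1.18 and 0.69 with LOC400043 siRNA 2, and 0.97 and 1.05 with LOC400043 siRNA 1. It passed its array's own plant percentile on 1 array only. Of the 46 probe sets, 42 carry the _x_st suffix of probe sets that may match other sequences, so a signal in those could not be given to a single copy.

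Of the tandem HBII-85 array (SNORD116), 2 of 35 probe sets (5.71%) were detected, for 29 copies. The share was 5.02% for plant and 16.0% for all human probe sets. The median of the 35 was 0.88 and the lowest was HBII-85-20_x_st at 0.73. Both detected probe sets were bright on every array. HBII-85-26_st, for SNORD116-26, had log2 signals of 8.05 and 7.00 with LINC00324 siRNA 2, 7.99 and 6.54 with LINC00324 siRNA 1, 5.99 and 7.27 with scramble, 6.77 and 7.98 with LOC400043 siRNA 2, and 8.06 and 7.22 with LOC400043 siRNA 1. Its mean of 7.29 ± 0.73 (SD over 10 arrays) was above 99.7% of plant probe sets. HBII-85-6_x_st, for SNORD116-6, had 7.75 and 6.47 with LINC00324 siRNA 2, 7.46 and 5.98 with LINC00324 siRNA 1, 5.69 and 6.82 with scramble, 6.33 and 7.42 with LOC400043 siRNA 2, and 7.26 and 6.68 with LOC400043 siRNA 1. Its mean was 6.79 ± 0.68 (SD over 10 arrays), above 99.6% of plant probe sets.

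The 2 bright probe sets moved together from array to array. HBII-85-26_st minus HBII-85-6_x_st stayed between 0.29 and 0.81 on the log2 scale on all 10 arrays, with an SD of 0.15, several times narrower than the spread of either probe set alone. Replicate arrays of one group differed by more than that gap varied. HBII-85-6_x_st carries the suffix of probe sets that may match several sequences, and whether the 2 probe sets respond to the same RNA was not tested.

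Other probe sets for the same copy did not show the bright signal. HBII-85-26 has 2 more probe sets, and HBII-85-26_x_st averaged 1.14 and HBII-85-26_s_st 0.80, both below the floor. SNORD116-26, SNORD116-6 and SNORD116-4 are the 3 HBII-85 copies of 98 bases in RefSeq, and the probe set HBII-85-4_x_st averaged 1.03, also below the floor. None of the probe sets for copies of other lengths was detected, with means from 0.73 to 1.29. The highest of these was HBII-85-8_x_st, just outside the 10-array floor at 1.29. It read 1.14 and 1.02 with LINC00324 siRNA 2, 1.57 and 1.00 with LINC00324 siRNA 1, 0.90 and 0.83 with scramble, 0.85 and 1.47 with LOC400043 siRNA 2, and 2.41 and 1.69 with LOC400043 siRNA 1. Only the LOC400043 siRNA 1 group had both arrays above 1.30.

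At 14q32 the probe sets for 14q(0) (SNORD112), 14q(I) (SNORD113) and 14q(II) (SNORD114) were detected in 3 of 60 cases (5.00%), none above the 99th percentile. This share is that of the plant probe sets (5.02%), beside 16.0% of all human probe sets. Passing the floor therefore does not by itself show that these RNAs were present. The probe set for 14q(0) averaged 0.73, with a range of 0.40 to 1.14. For 14q(I), 2 of 13 probe sets were detected, for 9 copies, both of them for 14q(I-1), and the lowest was 14qI-6_st at 0.65. For 14q(II), 1 of 46 probe sets was detected, for 31 copies, and the lowest was 14qII-22_x_st at 0.68.

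The 3 detected probe sets of 14q32 had means close above the floor and below 2.74, the 95th percentile of the array's background controls. The plain 14q(I-1) probe set, 14qI-1_st, read 2.30 and 1.11 with LINC00324 siRNA 2, 2.78 and 1.39 with LINC00324 siRNA 1, 1.81 and 1.55 with scramble, 2.08 and 2.15 with LOC400043 siRNA 2, and 1.75 and 1.31 with LOC400043 siRNA 1, a mean of 1.82. Its second probe set, 14qI-1_x_st, read 2.36 and 1.64 with LINC00324 siRNA 2, 1.78 and 1.45 with LINC00324 siRNA 1, 1.75 and 1.61 with scramble, 1.52 and 1.36 with LOC400043 siRNA 2, and 1.15 and 1.44 with LOC400043 siRNA 1, a mean of 1.61. By the 10-array mean, SNORD113-1 was the one snoRNA with more than 1 probe set for which all were above the floor. By the floor of the LOC400043 run alone, 14qI-1_x_st was not detected. Just inside the floor was 14qII-13_x_st, with 1.40 and 1.43 with LINC00324 siRNA 2, 1.29 and 1.29 with LINC00324 siRNA 1, 1.29 and 1.33 with scramble, 1.56 and 1.95 with LOC400043 siRNA 2, and 0.98 and 1.65 with LOC400043 siRNA 1, a mean of 1.42. The plain probe set for the same snoRNA, 14qII-13_st, averaged 0.85 and was not detected. Just outside was 14qII-4_st at 1.24, with arrays from 1.01 to 1.57. Of the 29 names with more than 1 probe set, 26 had every probe set below the floor, and HBII-85-26 and 14q(II-13) were mixed.

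**Figure D2:**
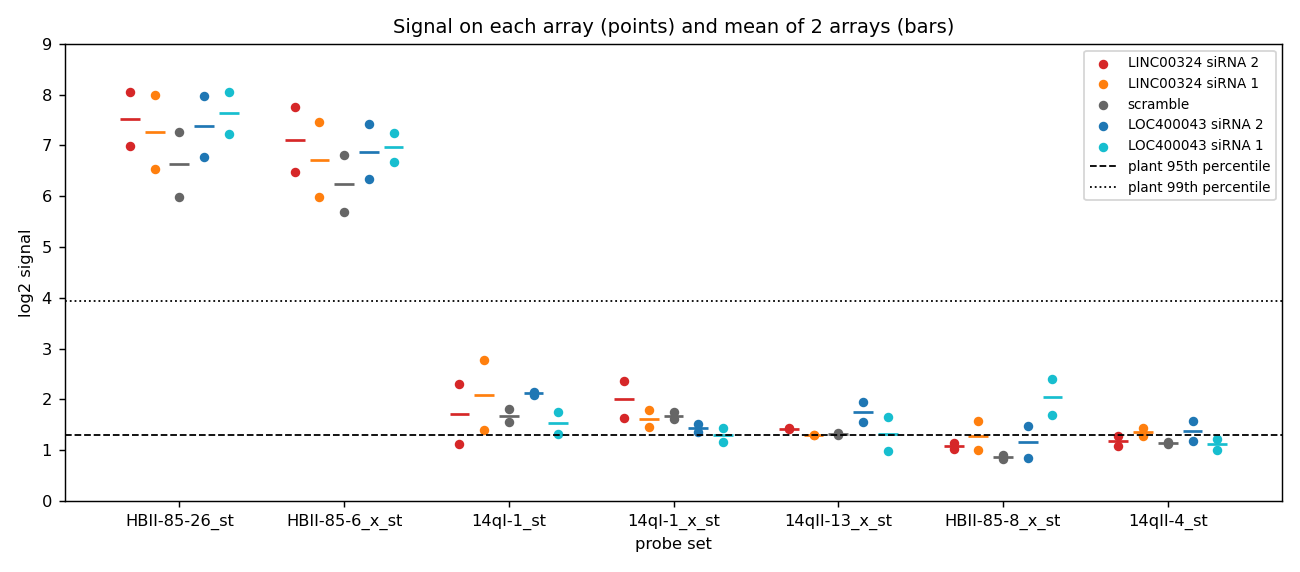
Log2 signal on each array (points) and the mean of the 2 arrays of a group (bars) for the 5 detected probe sets and the 2 nearest below the floor. HBII-85-26_st and HBII-85-6_x_st are at or above 5.69 on every array, and within each group their replicate arrays lie far apart.

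Named snoRNAs outside the 2 regions had a larger share of detected probe sets, and those known by an Ensembl identifier did not. The snoRNAs named U or HBII outside the 2 regions were grouped by name, with C/D box type not checked for each. Of their probe sets 152 of 236 (64.4%) passed the floor and 93 (39.4%) the 99th percentile. H/ACA snoRNAs and small Cajal body RNAs named ACA, which guide pseudouridylation, passed the floor in 45 of 111 cases (40.5%), and 7 (6.31%) passed the 99th percentile. snoRNA probe sets known by an Ensembl identifier were near background, with 87 of 1792 (4.85%), and any of them that lie in 15q11-q13 or 14q32 were not separated from the rest. Mature miRNAs were detected in 332 of 1100 cases (30.2%) and hairpin precursors in 84 of 1121 (7.49%). Of the array's background controls 26 of 95 (27.4%) also passed this floor, and 0 passed the 99th percentile. The groups were compared as shares without a test, because many probe sets of a tandem array may match several sequences and so may not be independent.

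**Figure D3:**
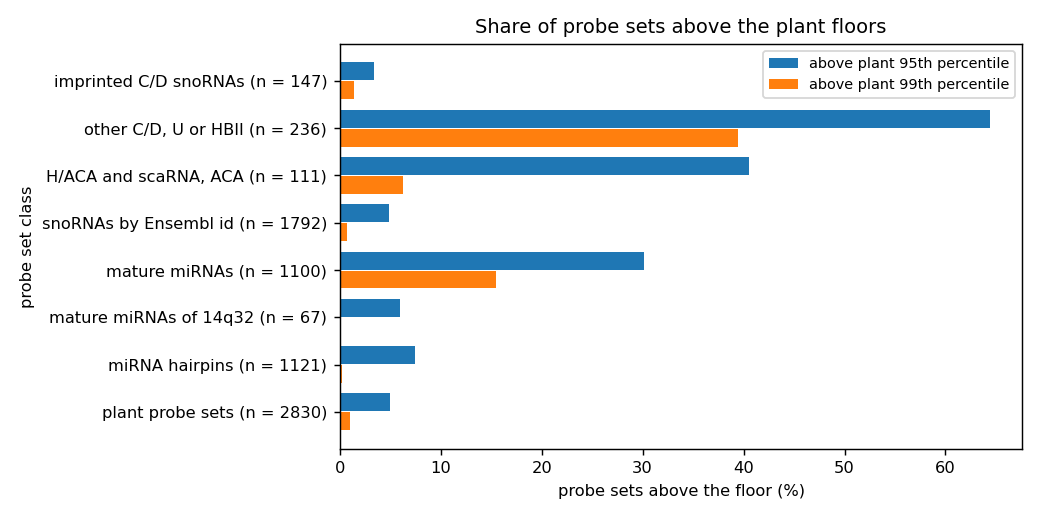
Share of probe sets (percent) above the plant 95th and 99th percentiles of mean log2 signal in each class. The imprinted snoRNAs, at 3.40% and 1.36%, are close to the plant probe sets, while 64.4% of the other snoRNAs named U or HBII, a group by name, pass the lower floor.

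The miRNAs of the 14q32 cluster were as rare. Of 67 mature miRNA probe sets of the cluster, 4 (5.97%) were detected, none above the 99th percentile, and 0 of 59 hairpin probe sets were. The sequences of the 4 detected miRNAs and of the next highest, miR-541-5p, are shown to identify the 5 miRNAs of the locus with the highest means. The detected share is close to the 5.02% of plant probe sets, so passing the floor does not by itself show that the RNA was present. They are RefSeq mature sequences on GRCh38.p14, equal to those in the authors' tables, 5′ to 3′, with the seed (bases 2 to 8) in capitals. No seed is shared among the 5.
miR-494-3p: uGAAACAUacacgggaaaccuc
miR-665: aCCAGGAGgcugaggccccu
miR-323a-5p: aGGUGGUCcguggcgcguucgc
miR-337-3p: cUCCUAUAugaugccuuucuuc
miR-541-5p: aAAGGAUUcugcugucggucccacu
On the plus strand they lie at chr14:101029681-101029702 (miR-494-3p), chr14:100875075-100875094 (miR-665), chr14:101025747-101025768 (miR-323a-5p), chr14:100874553-100874574 (miR-337-3p) and chr14:101064504-101064528 (miR-541-5p). Their means over the 10 arrays were 3.04, 2.10, 1.34, 1.31 and 1.23 in that order, the last below the floor. miR-494-3p varied widely between replicates, with 1.62 and 5.42 with LINC00324 siRNA 2, 3.16 and 2.26 with LINC00324 siRNA 1, 3.71 and 3.98 with scramble, 1.82 and 3.57 with LOC400043 siRNA 2, and 3.29 and 1.62 with LOC400043 siRNA 1.

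LINC00324 silencing was compared with scramble to ask whether the imprinted snoRNAs change with it. The moderated test of limma was fitted over 732 detected human probe sets with Benjamini-Hochberg adjustment, and a probe set was called at an adjusted p below 0.05. No imprinted snoRNA was called, 0 of 5 tested, against 40 of 732 (5.46%) called in all. In none of the 5 comparisons did any of the 5 reach an unadjusted p below 0.05. Among all 732 the unadjusted shares were 23.2% for LINC00324 silencing, 13.3% for siRNA 1, 30.7% for siRNA 2, 22.4% for LINC00324 siRNA 2 against siRNA 1 and 16.4% for LOC400043 siRNA 2 against siRNA 1. HBII-85-26_st averaged 7.39 ± 0.74 (SD, n = 4) in silenced arrays and 6.63 ± 0.91 (SD, n = 2) in scramble arrays, a log2 difference of 0.76 (SE 0.60, 95% interval -0.63 to 2.16, limma adjusted p = 0.527). HBII-85-6_x_st differed by 0.67 (SE 0.58, -0.69 to 2.02, limma adjusted p = 0.580). Single arrays moved these differences widely. Without scramble replicate 1 they were 0.12 and 0.10, and without scramble replicate 2 they were 1.40 and 1.23, for HBII-85-26_st and HBII-85-6_x_st in that order. Leaving out 1 of the 4 silenced arrays gave 0.40 to 1.12 and 0.30 to 1.04. The silenced arrays of both overlapped the scramble arrays, and differences within the wide 95% intervals given above were not excluded. The smallest difference that could have been called was not computed. For the 14q32 probe sets the differences were 0.21 (14qI-1_st), 0.13 (14qI-1_x_st) and 0.04 (14qII-13_x_st), with limma adjusted p of 0.823, 0.794 and 0.926.

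Each siRNA alone gave no call either. With siRNA 2 against scramble 0 of 5 were called, where 103 of 732 (14.1%) were called in all. HBII-85-26_st differed by 0.89 (SE 0.69, limma adjusted p = 0.456) and HBII-85-6_x_st by 0.86 (SE 0.67, limma adjusted p = 0.461), with arrays that overlapped scramble. With an array left out these ran from 0.25 to 1.53 and from 0.22 to 1.502. Both siRNA 2 arrays of 14qII-13_x_st, 1.40 and 1.43, were above both scramble arrays, by 0.11 on average (limma adjusted p = 0.807). Scramble replicate 1 there held the same value, 1.2881, as both siRNA 1 arrays. With siRNA 1 against scramble 0 of 5 were called, where 20 of 732 (2.73%) were called in all. HBII-85-26_st differed by 0.63 and HBII-85-6_x_st by 0.47, with limma adjusted p of 0.764 and 0.822. The 3 comparisons with scramble share the same 2 scramble arrays.

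The 2 LINC00324 siRNAs were also set against each other. None of 5 was called for siRNA 2 against siRNA 1, and 2 of 732 (0.273%) were called in all. HBII-85-26_st differed by 0.26 (95% interval -1.35 to 1.87, limma adjusted p = 0.862). The lowest limma adjusted p was 0.429, for 14qI-1_x_st, with a difference of 0.38 and overlapping arrays. Both siRNA 2 arrays of 14qII-13_x_st, at 1.40 and 1.43, were above both siRNA 1 arrays, each at 1.29, a difference of 0.13 (limma adjusted p = 0.800). The siRNA 1 arrays were tied at exactly 1.2881, the value of scramble replicate 1 as well. In all, 485 of 20706 rows were identical between the 2 siRNA 1 arrays, so the tie is not read as precision.

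The LOC400043 arrays have no scramble values for snoRNAs in their run, so siRNA 2 was set against siRNA 1. None of 5 was called, and 4 of 732 (0.546%) were called in all. HBII-85-26_st differed by -0.27 (95% interval -1.88 to 1.34, limma adjusted p = 0.878) and HBII-85-6_x_st by -0.09 (limma adjusted p = 0.960). 14qI-1_st read 2.08 and 2.15 with siRNA 2, above both siRNA 1 arrays, 1.75 and 1.31, a difference of 0.59 (SE 0.51, limma adjusted p = 0.584). 14qII-13_x_st differed by 0.44 (SE 0.24, 95% interval -0.12 to 1.01, limma adjusted p = 0.388), with overlapping arrays.

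**Figure D4:**
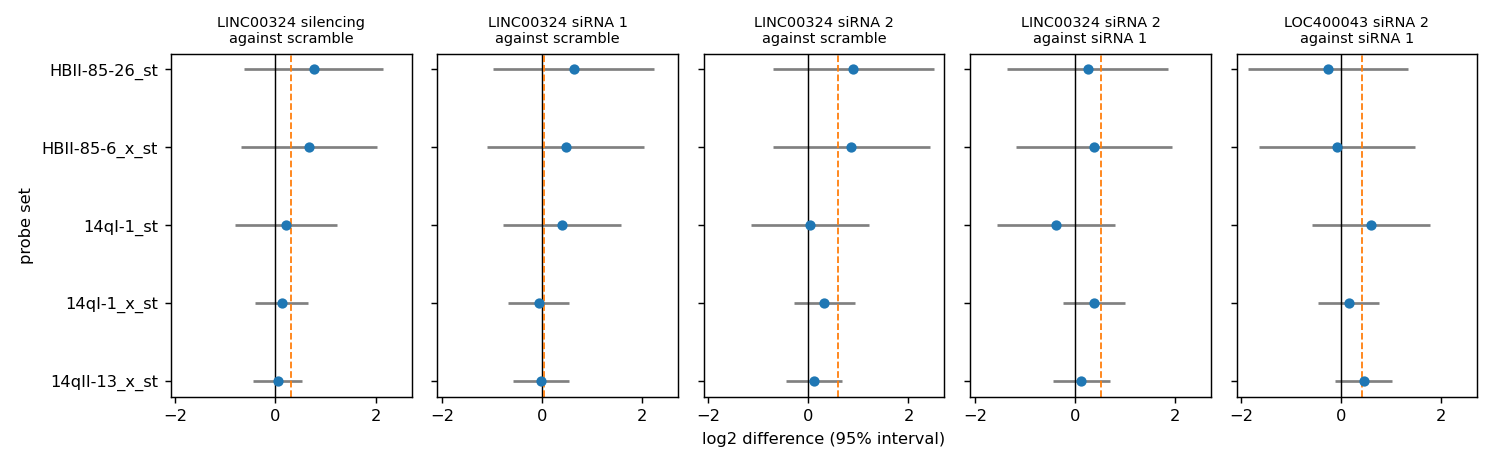
Log2 difference with its 95% interval for the 5 detected imprinted probe sets in the 5 comparisons. The dashed line is the median difference of the 152 tested probe sets of other snoRNAs named U or HBII, and each interval of the 5 probe sets spans 0.

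When all 4565 human probe sets were tested with no floor, limma called none of the 147 imprinted ones in any of the 5 comparisons. Over all 4565 the called shares were 0.723% for LINC00324 silencing, 0.438% for siRNA 1, 1.40% for siRNA 2, 0.131% for LINC00324 siRNA 2 against siRNA 1 and 0.0876% for LOC400043 siRNA 2 against siRNA 1. At an unadjusted p below 0.05 there were 3 imprinted probe sets (2.04%) for LINC00324 silencing, 3 (2.04%) for siRNA 1, 8 (5.44%) for siRNA 2, 5 (3.40%) for LINC00324 siRNA 2 against siRNA 1 and 7 (4.76%) for LOC400043 siRNA 2 against siRNA 1. Over all human probe sets the shares were 8.83%, 6.55%, 9.99%, 7.91% and 7.89% in that order. The median difference of the 147 was 0.06, 0.01, 0.06, 0.03 and 0.02.

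Other snoRNAs named U or HBII, grouped by name and tested in the same fit, included called members with siRNA 2. Of 152 tested, 46 rose and 0 fell against scramble with LINC00324 siRNA 2, with a median difference of 0.59, and 7 rose and 0 fell for both siRNAs together, with a median of 0.32. With siRNA 1 alone 0 of 152 were called, with a median of 0.03. Between the 2 LINC00324 siRNAs and between the 2 LOC400043 siRNAs 0 were called, with medians of 0.52 and 0.41. The median signal of detected snoRNAs on each array moved with these values. It was 2.94 and 3.02 with LINC00324 siRNA 2, 2.72 and 2.36 with siRNA 1, and 2.45 and 2.68 with scramble. With arrays centred on that median, HBII-85-26_st differed from scramble by 0.48 with siRNA 2 (limma adjusted p = 0.594) and by 0.57 with both siRNAs together (limma adjusted p = 0.561). HBII-85-6_x_st then differed by 0.45 with siRNA 2 (limma adjusted p = 0.612) and by 0.47 with both (limma adjusted p = 0.629). The 46 calls with siRNA 2 became 0 when any 1 of the 4 arrays compared was left out, 0 when only those 4 arrays were fitted and 23 with the replicate block. With arrays centred on the snoRNA median 0 rose and 1 fell. That median is taken over detected snoRNAs that include these 152, so centring removes much of a shift they share. More rose under other settings, 69 with arrays centred on the human median and 63 with quantile normalization. There were 55 among detected snoRNA probe sets only, 51 with a trended, robust moderation and 59 of 93 with the 99th percentile as floor. With no floor 25 of 236 rose, and with all rows tested 12 of 236. The 7 calls for both siRNAs together became 0 to 4 with an array left out and ran from 0 to 22 under the other settings. The 0 calls between the 2 LINC00324 siRNAs became 22 of 93 with the 99th percentile as floor, where 44 of 295 were called in all. They became 11 of 152 with a trended, robust moderation, where 22 of 732 were called in all. All of these calls in the U or HBII group were higher with siRNA 2. Between the 2 LOC400043 siRNAs the count was at most 1 under the settings run. Whether the imprinted snoRNAs and those named U or HBII differ in response was not tested.

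Among the 4 detected 14q32 miRNAs, limma called miR-323a-5p lower with LINC00324 silencing. Of all 332 mature miRNA probe sets tested in this comparison, 27 were called lower and 2 higher, with a median difference of -0.13. miR-323a-5p passed the floor through the scramble and LOC400043 arrays, in which it was high, so the call is given as a description only. It read 1.01 and 0.96 with siRNA 2, 0.82 and 1.09 with siRNA 1, and 1.71 and 1.54 with scramble. All 4 silenced arrays were below the floor. Measured means were 0.97 ± 0.11 (SD, n = 4) in silenced and 1.62 ± 0.12 (SD, n = 2) in scramble arrays (limma adjusted p = 0.0439). With the silenced values set to the floor, the scramble mean was 1.25-fold higher, a point estimate with no error attached. The fall passed the threshold with siRNA 2 alone (limma adjusted p = 0.0458) and not with siRNA 1 alone (limma adjusted p = 0.0932). The call on miR-323a-5p lay close to the threshold. For both siRNAs together its limma adjusted p ran from 0.0367 to 0.286 over the alternative settings, and it was 0.286 without scramble replicate 1, 0.118 without scramble replicate 2, 0.117 without siRNA 1 replicate 1, 0.101 without siRNA 2 replicate 1, 0.0962 without siRNA 2 replicate 2 and 0.0494 without siRNA 1 replicate 2. The direction was kept under each of these settings. With siRNA 2 alone the limma adjusted p was 0.0982 to 0.220 with an array left out. miR-494-3p differed by -0.73 (SE 1.03, limma adjusted p = 0.721), and its silenced arrays overlapped scramble.

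Marker miRNAs of muscle and liver were at background, with 0 of 4 and 0 of 2 probe sets detected. Of the blood probe sets 2 of 7 (28.6%) were detected, miR-451 at 1.81 and miR-144-star at 1.48. The neuronal list had 7 of 16 probe sets detected (43.8%), beside 30.2% of all mature miRNAs and 27.4% of background controls. Its detected members were miR-128 at 5.92, miR-7 at 2.92, its passenger arm miR-7-1-star at 1.92, miR-138 at 1.75, miR-138-1-star at 1.67, miR-129-3p at 1.35 and miR-124 at 1.34, of which miR-124 and miR-129-3p were just above the floor. The other 9 were below it, miR-9 at 0.80, miR-137 at 0.74 and miR-153 at 0.81 among them.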

How the data were processed

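The value table deposited by the authors holds normalized log2 signals of 10 arrays. The scale was taken from the values, and per the submitters' processing notes limma was used, with no version given. Not given in the sources used here are background correction, summarization, normalization method and build. A deposited table of miRNAs shows the same 2 scramble arrays with log2 values that differ by up to 1.29 from the value table, because the LOC400043 arrays were normalized in a separate run, so each comparison stayed within a run. The authors' LOC400043 table has 4 per-sample columns that match no label, which were not used.

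The plant list was drawn from 31 species codes after the files were read. limma 3.58.1 on R 4.3.3 fitted 1 mean per group over all 10 arrays (5 residual and 2.64 prior degrees of freedom, median SD 0.256), after testing on simulated data, and tables were made with pandas 2.3.3 on Python 3.11.15. Suffixes _x_st and _s_st mark probe sets that may match several sequences, on 99 and 4 of the 147. snoRNA sequences were not used here. RefSeq GRCh38.p14 gave names, order and lengths.

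Named were all single-copy members, the highest 5 detected and the lowest of each tandem family, the 2 nearest the floor on each side, the detected members of lowest p, and 14q32 miRNAs past the threshold or of highest mean. Members, marker lists and the 14q32 miRNA list were chosen with earlier results of these data known, miR-323a-5p among them. Alternatives were other floors, centrings, filters, a replicate block and each array left out. The number of arrays limits the precision. Same-numbered arrays did not deviate together (correlations from -0.27 to 0.17), so numbers were not used to pair arrays.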

Additional observations from a re-analysis of the deposited data

How the results depend on the processing

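The 5 detected probe sets were 2 with the plant 99th percentile as floor, 2 with the background controls' 95th percentile (2.74), 2 when required on all 10 arrays above each array's own percentile, 2 among plain-suffix probe sets, and 0 above the highest plant probe set (9.97); with an array left out there were 5 to 6. No imprinted probe set was called under any of 73 settings of the 5 comparisons. Of 350 alternative values of the named probe sets 39 changed sign and 0 passed the threshold, the lowest limma adjusted p being 0.144. With arrays centred on the snoRNA median, the differences were -0.0634 (14qI-1_x_st) and -0.15 (14qII-13_x_st) for LINC00324 silencing, 0.0087 (14qII-13_x_st) for siRNA 1, -0.39 (14qI-1_st), -0.0934 (14qI-1_x_st) and -0.31 (14qII-13_x_st) for siRNA 2, -0.0600 (14qI-1_x_st), -0.31 (14qII-13_x_st), -0.18 (HBII-85-26_st) and -0.0540 (HBII-85-6_x_st) for LINC00324 siRNA 2 against siRNA 1, and -0.23 (14qI-1_x_st) for LOC400043. Centring on the human median gave 0.11 (14qI-1_x_st) and 0.16 (14qII-13_x_st) for siRNA 1 and -0.0803 (14qI-1_x_st) for LOC400043, and quantile normalization 0.019 (14qI-1_x_st) for siRNA 1. With an array left out, differences of LINC00324 silencing ran from -0.14 to 0.56 (14qI-1_st) and -0.0512 to 0.31 (14qI-1_x_st), and from 0.12 to 1.40 (HBII-85-26_st) and 0.10 to 1.23 (HBII-85-6_x_st). For siRNA 1 they ran from -0.29 to 1.10 (14qI-1_st), -0.23 to 0.10 (14qI-1_x_st), -0.0389 to 0.00 (14qII-13_x_st), -0.0904 to 1.36 (HBII-85-26_st) and -0.27 to 1.21 (HBII-85-6_x_st). For siRNA 2 they ran from -0.57 to 0.62 (14qI-1_st) and -0.0409 to 0.68 (14qI-1_x_st). For LINC00324 siRNA 2 against siRNA 1 they ran from -1.08 to 0.32 (14qI-1_st), -0.46 to 0.98 (HBII-85-26_st) and -0.35 to 1.13 (HBII-85-6_x_st), and for LOC400043 from -0.88 to 0.34 (HBII-85-26_st) and -0.64 to 0.45 (HBII-85-6_x_st). The cause of these sign changes was not tested. With the replicate block, calls over all 732 probe sets were 31, 14, 55, 1 and 2, against 40, 20, 103, 2 and 4 without it, for LINC00324 silencing, siRNA 1, siRNA 2, LINC00324 siRNA 2 against siRNA 1 and LOC400043 siRNA 2 against siRNA 1. With an array left out they ran from 0 to 36, 0 to 0, 0 to 12, 0 to 3 and 0 to 1, and under the other settings from 0 to 210, 0 to 157, 0 to 137, 0 to 44 and 0 to 29. The fall of miR-323a-5p against scramble is a description only, because its probe set passed the floor through arrays in which it was high. All its silenced arrays were below the floor. The fall kept its sign under all alternatives run. It was -0.49 with arrays centred on the human median and -0.85 on the snoRNA median, for both siRNAs together. It lost its call with no filter, all rows, quantile normalization, both centrings, only the arrays compared, the replicate block (limma adjusted p = 0.0756) and the silenced arrays as 1 group, and kept it with a trended, robust moderation (limma adjusted p = 0.0367). With siRNA 2 alone its limma adjusted p was 0.0772 with the replicate block. Its probe set is below the 99th percentile and was not tested there.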
